A study of Mus musculus with 9 samples.

Results

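Genes of glycolysis and the pentose phosphate pathway were followed in mouse cells across 3 groups of the series: control, abnormal non-malignant and NIC tumor. The list held 37 genes, chosen by name to cover glucose uptake, each enzyme step from hexokinase to lactate, and lactate export. It also covers the entry of pyruvate into mitochondria and the pentose phosphate branch. The list was chosen with earlier results of these data known, so no set test was run. Its counts beside the shares of all genes are description only. Each gene was read from the probe set, a group of short probes for 1 transcript, that is annotated to that gene alone and has the highest mean over the 9 arrays. Of the 37 genes, 33 had such a probe set among the 18193 genes on the array, Gapdh was covered by control probe sets alone, and Gpi1, Eno1 and G6pdx were not analysed here. A gene was tested if it lay above the 40th percentile of its array on at least 3 arrays, and 31 of the 33 did. Eno2 and Pdk4 did not.

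The series concerns T cell acute lymphoblastic leukemia and overexpression of NOTCH1, a receptor of the T cell lineage. The labels name the 3 groups and give 3 arrays to each, hybridized with RNA of sorted cells. They state no strain, genotype, age or sorted population, do not spell out NIC, and do not tie the arrays to animals. The p-values therefore cover the spread between these arrays, which may be technical. Of the 12 T lineage markers listed, 11 had a level and all 11 passed the filter. Cd3e stayed at log2 values of 11.76 to 12.36 on the 9 arrays, but not all markers were as steady. In tumors against controls 1 of the 11 was called higher and 3 lower by the test given below. Cd4, a fallen marker, stood at 12.01, 12.04 and 11.71 in controls and at 10.77, 10.06 and 8.57 in tumors.

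Glycolysis splits glucose into pyruvate in the cytosol. Pyruvate is then reduced to lactate by lactate dehydrogenase or oxidized in mitochondria by the pyruvate dehydrogenase complex, which pyruvate dehydrogenase kinases switch off. The pentose phosphate pathway branches off after hexokinase and supplies NADPH and ribose. Proliferating T cells and many leukemias are known for high glucose use, and several steps have isoforms encoded by separate genes.

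Values are log2 signals, so a difference of 1 is a 2-fold difference, and levels of different probe sets have no common scale. Array medians lay between 5.67 and 5.77. The SD of the values was lowest on tumor 3, at 1.97, and was 2.12 to 2.19 on the other arrays. Abnormal non-malignant arrays 2 and 3 were far closer to each other (SD of their differences over all genes tested 0.16) than any other pair (0.3 or more), and whether they are separate samples is not stated; calls that rest on them are therefore also given with their mean counted as 1 array. By the same measure tumor 1 lay closer to the 3 non-malignant arrays (0.46 to 0.47) than to tumor 2 (0.63) or tumor 3 (0.79). The Y-linked gene Eif2s3y read 8.69 on control 2 and 3.11 to 4.18 elsewhere. The 5′ probe set of Gapdh, a measure of RNA integrity when set against its 3′ probe set, was lower than the latter by 0.44 on control 2, 0.43 on control 3 and 0.75 on non-malignant 1, and was within 0.16 of it on the other 6 arrays. Within groups, the root mean square SD of the 31 genes was 0.35 in controls, 0.25 in non-malignant arrays and 0.42 in tumors, against 0.27, 0.23 and 0.49 over all 13296 genes tested.

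In NIC tumors, Aldoa, Tpi1, Pgk1, Pgam1, Pkm and Ldha, which act from aldolase to lactate dehydrogenase, were higher than in controls, while Ldhb, the other lactate dehydrogenase gene, was lower. Of the 31 genes tested, 12 rose and 3 fell (limma with Benjamini-Hochberg adjustment over all genes, adjusted p under 0.05). Over all genes tested, 8.48% were called higher and 7.19% lower. As the list was chosen with earlier results known, these shares are given for scale only. The median log2 fold change was 0.27 over both the 31 genes tested and the 33 with a level, against 0.06 over all genes tested. In bulk RNA, a change in every cell and a change in the share of cells that express a gene cannot be told apart. In 15 of the 31 genes all tumor arrays lay above all controls, and in 4 below, where 18.2% and 14.3% of all genes did so (32.5% in either direction).

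Abnormal non-malignant arrays differed from controls in fewer calls. Of the 31 genes, 4 rose and 1 fell, where 2.87% and 0.654% of all genes were called in these directions. The risen genes were Slc2a3, Pgam1, Ldha and Tkt, and the fallen one was Pdk2. The median log2 fold change was 0.18 over the 31 genes tested and 0.13 over the 33 with a level, against 0.01 over all genes. All 5 calls ended when non-malignant arrays 2 and 3 were averaged, with limma adjusted p-values of 0.0727 to 0.163, and of the 15 calls in tumors 11 remained. In 12 genes all non-malignant arrays lay above all controls and in 5 below, against 17% and 9.15% of all genes (26.1% in either direction).

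Tumors and non-malignant arrays were also compared directly, which tests how far the tumor values go beyond the non-malignant ones. Aldoa, Tpi1, Pkm, Ldha and Pgm1 were called higher in tumors and none lower, where 1.53% of all genes were called higher and 2.7% lower. Of these 5, Ldha alone was also called in non-malignant arrays against controls. In 9 genes all tumors lay above all non-malignant arrays and in 2 below, against 12.3% and 14.8% of all genes (27.1% in either direction). The median was 0.21 over the 31 genes, against 0.03 over all genes tested. All 5 calls ended with non-malignant arrays 2 and 3 averaged (limma adjusted p 0.05 for Pkm and 0.104 to 0.173 for the other 4). The comparisons with controls share the control arrays, so their values are set side by side below and their likeness is not itself a result.

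**Figure D1:**
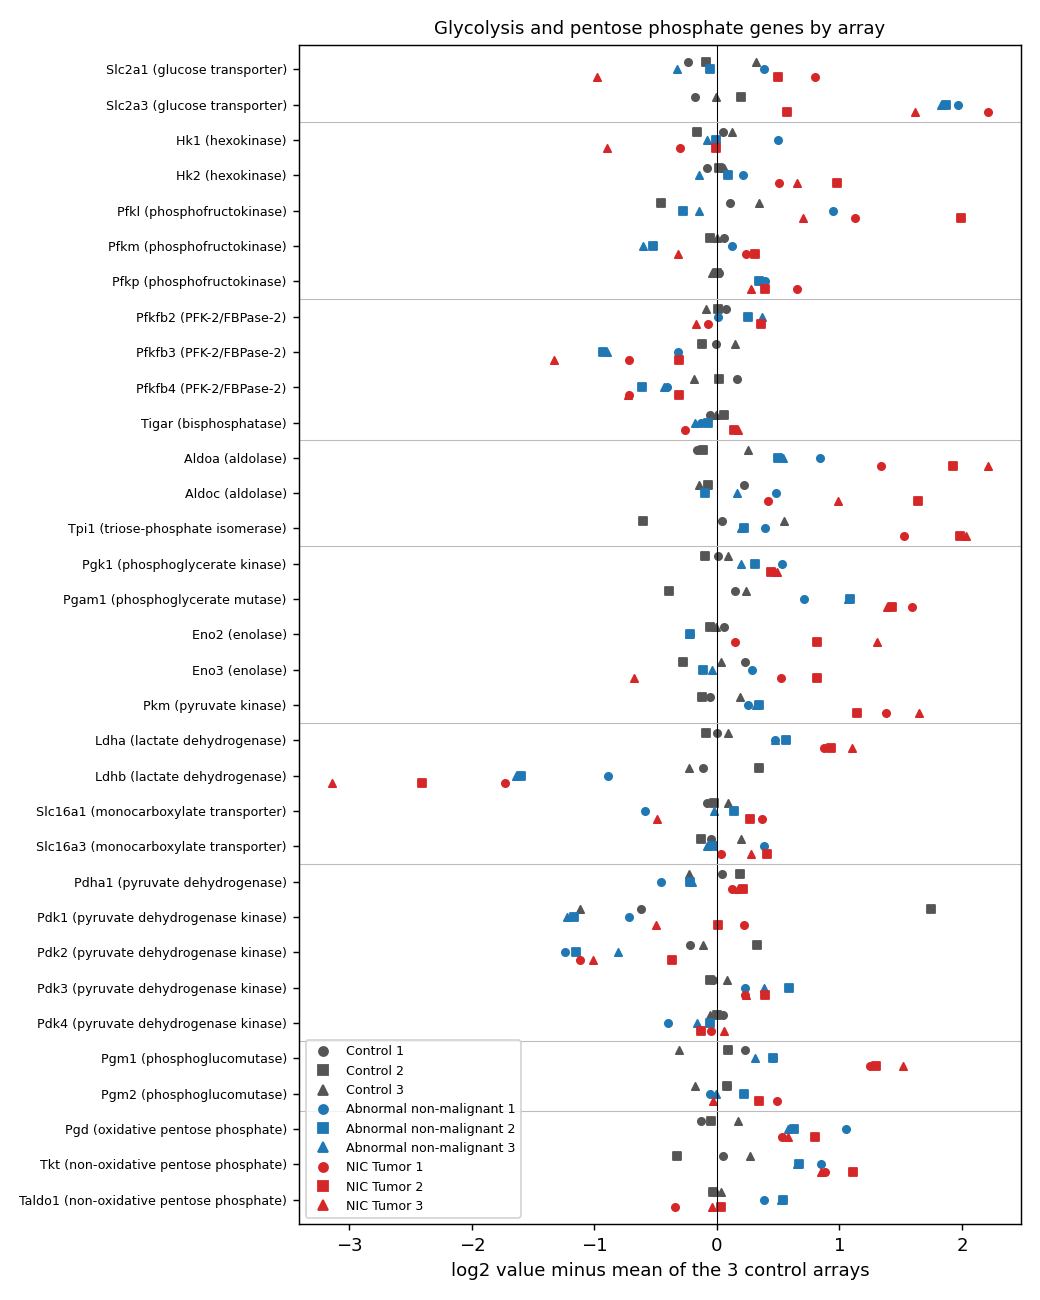
Log2 value minus the mean of the 3 control arrays (horizontal axis) for the 33 genes with a probe set of their own, in pathway order with grey lines between blocks. Grey, blue and red points are control, abnormal non-malignant and NIC tumor arrays, and circles, squares and triangles are replicates 1, 2 and 3. The red points of Aldoa, Tpi1, Pgam1, Pkm and Ldha lie to the right of every grey point, those of Ldhb to the left.

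**Figure D2:**
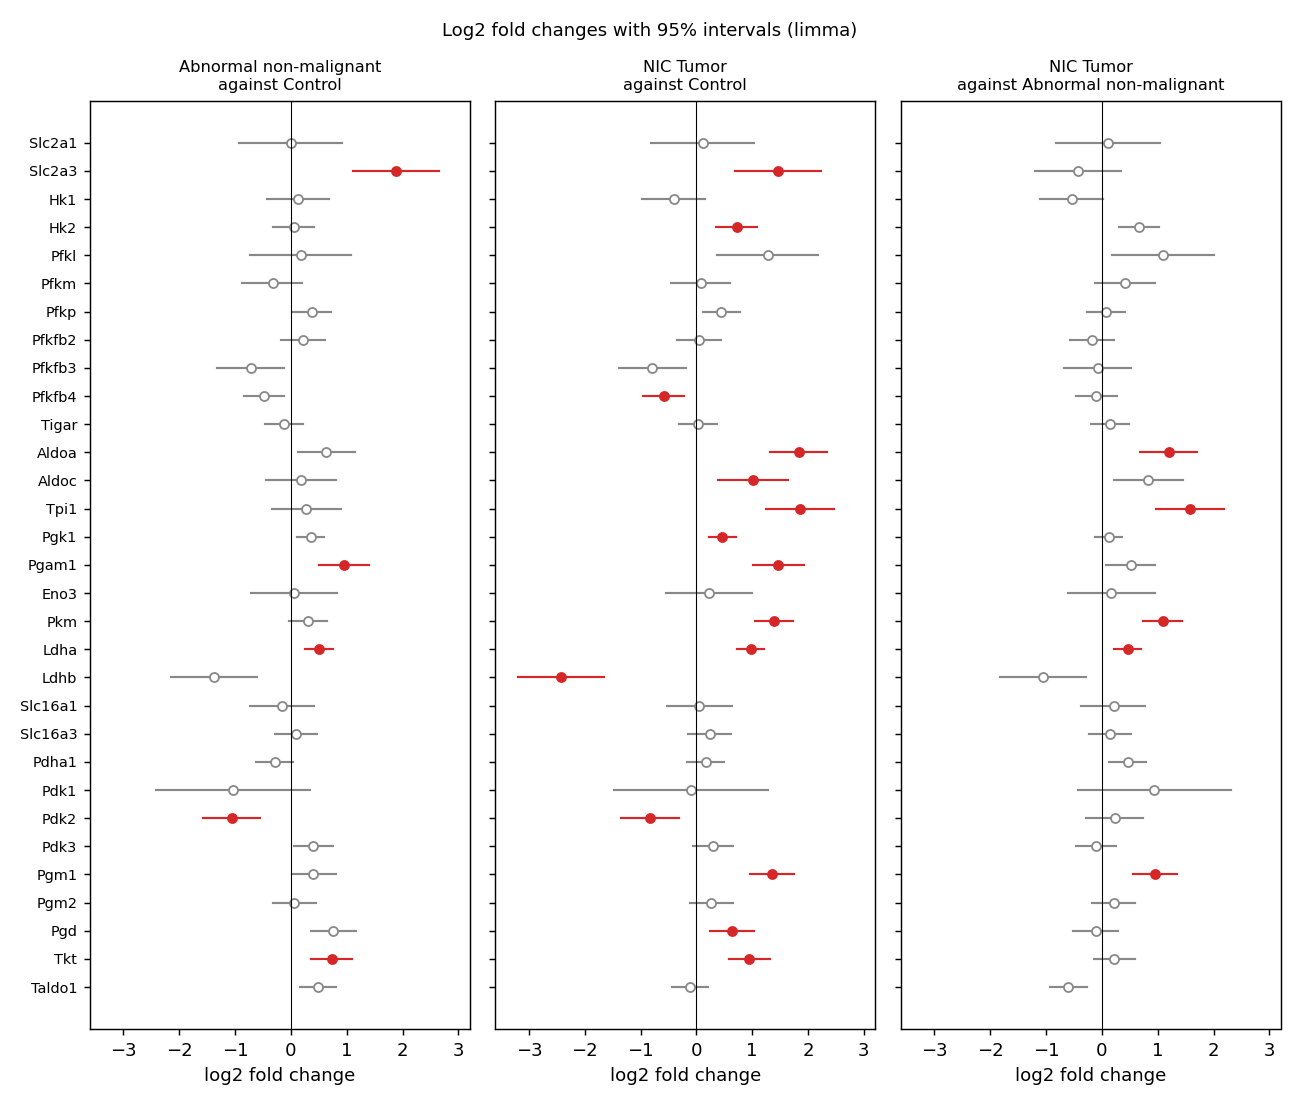
Log2 fold change (horizontal axis, point) with its 95% interval from limma (line) for the 31 genes tested, in 3 panels, 1 for each comparison. Filled red points passed at an adjusted p under 0.05 over all genes and open grey points did not. The panel of tumors against controls holds 15 filled points, 12 of them right of 0, and each of the other 2 panels holds 5.

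Glucose enters through transporters of the Slc2a family. Slc2a3, the high-affinity transporter GLUT3, stood at 8.5, 8.88 and 8.67 on control arrays 1 to 3, at 10.65, 10.55 and 10.51 on non-malignant arrays 1 to 3 and at 10.89, 9.25 and 10.3 on tumor arrays 1 to 3. All 6 arrays outside the control group lay above the controls, with tumor 2 the nearest to them. Its log2 fold change was 1.89 ± 0.34 (SE) in non-malignant arrays (3.7-fold, limma adjusted p = 0.0153) and 1.46 ± 0.34 in tumors (2.76-fold, limma adjusted p = 0.0212), and tumors and non-malignant arrays differed by −0.42 (limma adjusted p = 0.448). The other 3 Slc2a3 probe sets were above all controls on every tumor and on non-malignant 2 and 3, but on the 2 dimmest of them non-malignant 1 lay among the controls (5.02 against 4.87 to 5.5 by one of them). These 2 did not pass against controls in the fit of all 28123 probe sets that passed the filter (limma adjusted p = 0.348 and 0.38 in non-malignant arrays, 0.0693 and 0.0749 in tumors), and between tumors and non-malignant arrays they pointed upward (0.3 and 0.44). Without any 1 control or tumor 3 the tumor call ended (1.09 to 1.91 with 1 array left out), and the non-malignant call ended on leaving out control 1, control 3 or any of the non-malignant arrays (1.79 to 1.99).

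Slc2a1, the broadly expressed transporter GLUT1, did not pass in any comparison. It stood at 7.09 to 7.65 in controls, 7 to 7.71 in non-malignant arrays and 8.13, 7.83 and 6.35 on the tumor arrays, so that the groups overlapped. Its log2 fold change was 0.11 in tumors, with a 95% interval from −0.82 to 1.04, which spans both directions. Of its other probe sets, 1 pointed the other way in tumors (−0.04). The change of the within-array difference Slc2a1 minus Slc2a3 was −1.89 in non-malignant arrays against controls, with groups that did not overlap (exact permutation test, two-sided, p = 0.1, the smallest that 3 against 3 arrays can give).

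Hexokinase traps glucose in the cell. Hk2, the isoform known to be induced in tumors, rose in the tumors by 0.72 ± 0.16 (SE; 1.64-fold, limma adjusted p = 0.0194). Its values were 6.37, 6.47 and 6.51 in controls, 6.66, 6.54 and 6.3 in non-malignant arrays and 6.96, 7.43 and 7.1 in tumors, so the tumors alone stood apart. The call ended without any 1 control or tumor 2 (0.58 to 0.82 with 1 array left out). Hk1, the constitutive isoform, stood at 9.82, 9.61 and 9.89 in controls, 10.27, 9.76 and 9.69 in non-malignant arrays and 9.47, 9.76 and 8.87 in tumors, and did not pass (log2 fold change −0.41 in tumors, limma adjusted p = 0.291). The difference Hk2 minus Hk1 was 1.12 greater in tumors than in controls and 1.2 greater than in non-malignant arrays, in both cases with no overlap (exact permutation p = 0.1). A second Hk1 probe set pointed the other way in tumors (8.58, 7.53 and 8.05 in controls, 8.2, 8.65 and 8.16 in tumors, difference 0.28), and with it the change of Hk2 minus Hk1 was 0.43 and 0.6 and the groups overlapped.

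Phosphofructokinase commits glucose to glycolysis and forms tetramers of liver (Pfkl), muscle (Pfkm) and platelet (Pfkp) subunits. None of the 3 passed in any comparison by limma. Pfkl read 9.15, 8.58 and 9.38 in controls, 9.99, 8.76 and 8.89 in non-malignant arrays and 10.17, 11.03 and 9.74 in tumors. All tumors lay above all controls, and the log2 fold change of 1.28 had an adjusted p of 0.0616. In the fit of all probe sets, another Pfkl probe set passed in tumors (1.23, limma adjusted p = 0.023), while the dimmest pointed the other way (−0.48, adjusted p = 0.168). Pfkp, at 9.18 to 9.24 in controls, 9.56 to 9.61 in non-malignant arrays and 9.5 to 9.87 in tumors, was higher without overlap in both groups (0.37 and 0.44) and did not pass (limma adjusted p = 0.308 and 0.0772). The dimmest Pfkp probe set differed by −0.38 in non-malignant arrays, with controls spread from 5.82 to 7.86. Pfkm differed by −0.33 and 0.08 from controls.

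Phosphofructokinase is activated by a fructose bisphosphate that differs from its own product. Enzymes of the Pfkfb family make and remove this activator, and Tigar removes it as well. Pfkfb4 fell in tumors by 0.58 on the log2 scale (SE 0.16, limma adjusted p = 0.0394), from 6.79, 6.65 and 6.44 in controls to 5.91, 6.32 and 5.9 in tumors, with 6.22, 6.02 and 6.2 in non-malignant arrays. This call ended without any 1 array other than tumor 2 (−0.72 to −0.5). Pfkfb3, which favours synthesis of the activator, stood at 7.65 to 7.92 in controls and lower in every array of the other groups, at 6.84 to 7.45 and 6.44 to 7.46. Its log2 fold changes of −0.72 and −0.79 did not pass (limma adjusted p = 0.248 and 0.0743). A dimmer Pfkfb3 probe set read 5.77 to 5.94 in controls and 5.68, 6.39 and 6.13 in tumors, and so did not repeat this order. Pfkfb2, at 7, 6.94 and 6.84 in controls, 6.94, 7.18 and 7.3 in non-malignant arrays and 6.86, 7.29 and 6.76 in tumors, differed by 0.21 and 0.04 from controls, and a dimmer probe set by −0.16 and −0.2. Tigar differed by −0.12 and 0.02 in the probe set with the highest mean and by 0.39 and −0.11 in the dimmest. Another, which read 4.34 to 5.21 on controls and 5.46 to 5.79 on tumors, rose in tumors (0.85, limma adjusted p = 0.0337 over all probe sets). It lay under the 40th percentile on controls 1 and 2. In non-malignant arrays it differed by 0.79 and did not pass (limma adjusted p = 0.12).

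**Figure D3:**
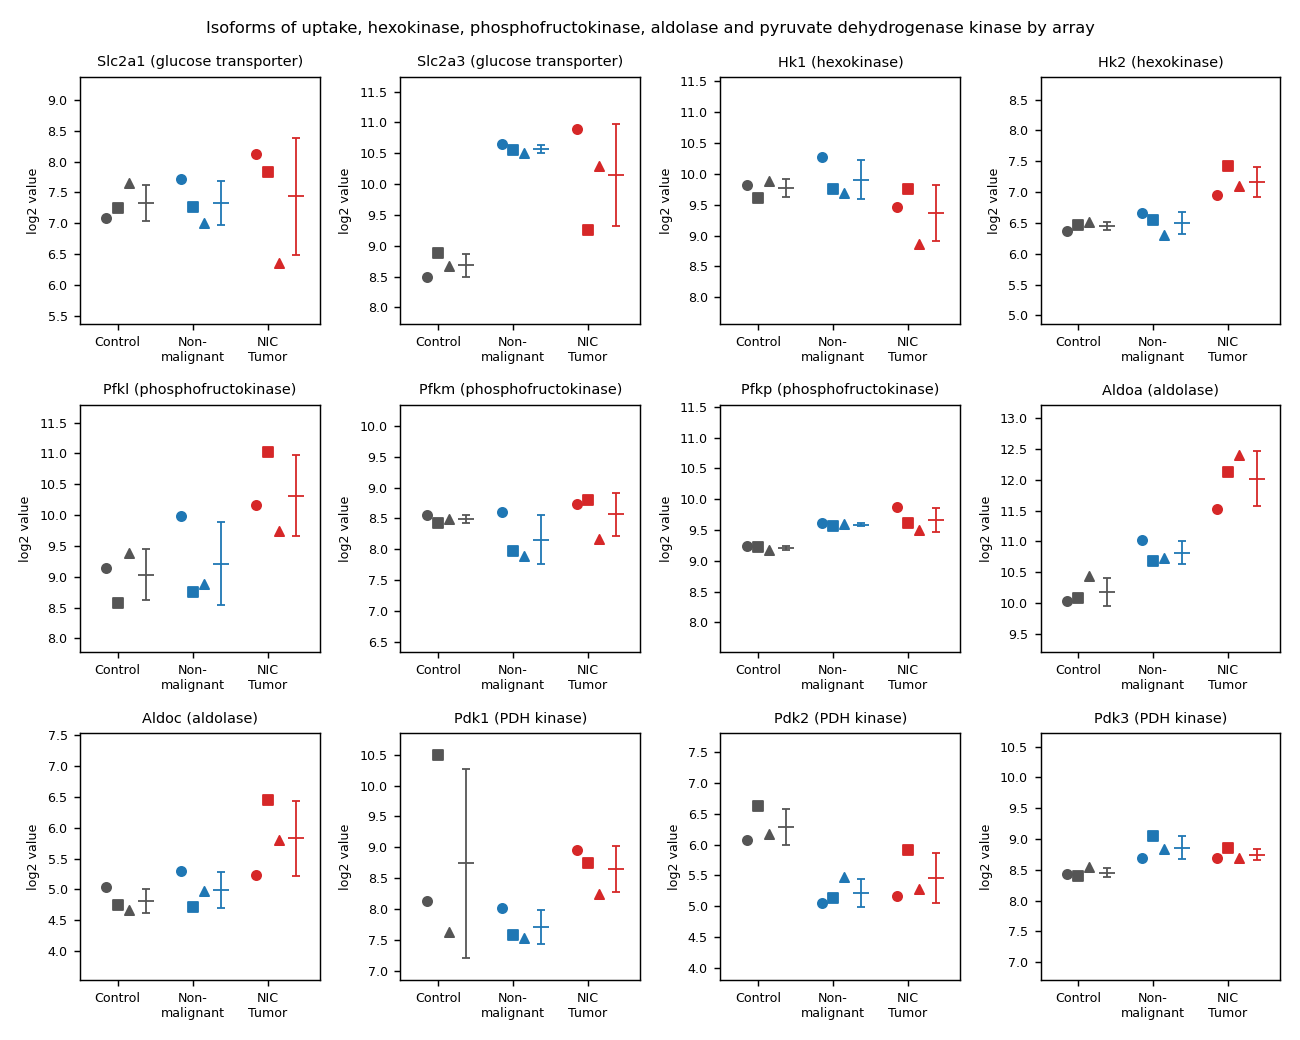
Log2 value (vertical axis, each panel spanning 4 log2 units) by group for 12 genes encoding isoforms of 5 steps. Points are arrays (circle, square and triangle for replicates 1, 2 and 3) and the bar beside them is the mean ± SD of the 3 arrays. Slc2a3 is higher in both other groups than in controls, Hk2 and Aldoa are highest in tumors, and the control spread of Pdk1 comes from control 2, at 10.49.

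The largest rises in tumors among the 31 genes were at aldolase and triose-phosphate isomerase, which split the hexose and interconvert the resulting trioses. Aldoa, the main aldolase of dividing cells, stood at 10.03, 10.08 and 10.44 in controls, 11.03, 10.69 and 10.73 in non-malignant arrays and 11.53, 12.12 and 12.4 in tumors. The 3 groups did not overlap. The log2 fold change was 1.83 ± 0.23 (SE; 3.56-fold, limma adjusted p = 0.00147) against controls and 1.2 ± 0.23 against non-malignant arrays (limma adjusted p = 0.0269), and 0.63 between non-malignant arrays and controls (adjusted p = 0.232). All 5 Aldoa probe sets rose in tumors by 1.1 to 1.95 in the fit of all probe sets. Of these, 1 also passed in non-malignant arrays (0.81, limma adjusted p = 0.032), and between tumors and non-malignant arrays 2 did not pass (1.19 and 0.29, adjusted p = 0.0647 and 0.294). Each is of the kind (x_at) that may bind related transcripts.

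Aldoc, the brain isoform, lay under the 40th percentile on all controls, at 4.66 to 5.03. It read 5.29, 4.71 and 4.97 in non-malignant arrays and 5.23, 6.45 and 5.8 in tumors. It was called higher (1.02, limma adjusted p = 0.0377), but the call ended without any 1 control, non-malignant 2 or 3, or tumor 2 or 3 (0.7 to 1.31), and with values under the 40th percentile raised to it (0.63, adjusted p = 0.112). The difference Aldoa minus Aldoc overlapped between the groups in all 3 comparisons by these probe sets. With the mean of probe sets it overlapped in none (changes of 0.57, 1.14 and 0.57). That mean takes in an Aldoc probe set that was under the 40th percentile on all 9 arrays.

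Tpi1 rose by 1.85 ± 0.27 (SE; 3.61-fold, limma adjusted p = 0.00332) in tumors against controls and by 1.58 ± 0.27 against non-malignant arrays (limma adjusted p = 0.0196). Its values were 9.38, 8.74 and 9.89 in controls, 9.73, 9.56 and 9.54 in non-malignant arrays and 10.87, 11.32 and 11.37 in tumors. Every tumor lay above the other 6 arrays, among which controls and non-malignant arrays overlapped (0.27, limma adjusted p = 0.845). All 3 Tpi1 probe sets rose in tumors against controls, by 1.62 to 1.85, while the other 2 did not pass against non-malignant arrays (1.12 and 1.29, limma adjusted p = 0.145 and 0.0551).

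Lower glycolysis harvests energy from the triose. Its first enzyme, Gapdh, was measured by control probe sets only and was not tested. The 3′ set read 13.46, 13.19 and 13.31 in controls, 13.57, 13.5 and 13.51 in non-malignant arrays and 13.49, 13.45 and 13.47 in tumors. All 9 values thus lay close together, near the top of the range of these arrays. Pgk1, the phosphoglycerate kinase, rose slightly in tumors, from 12.21, 12.1 and 12.29 to 12.66, 12.64 and 12.69 (0.46 ± 0.11, SE; limma adjusted p = 0.0218), with 12.73, 12.51 and 12.4 in non-malignant arrays. Its call ended without control 1, control 2 or tumor 2 (0.41 to 0.51), and the dimmest of its 3 probe sets did not pass (0.3, limma adjusted p = 0.217).

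Pgam1, the phosphoglycerate mutase, rose in both groups. It stood at 9.53, 8.99 and 9.62 in controls, at 10.09, 10.47 and 10.45 in non-malignant arrays and at 10.97, 10.81 and 10.77 in tumors. Each group lay wholly above the one before. The log2 fold change against controls was 0.95 ± 0.2 (SE; 1.94-fold, limma adjusted p = 0.0293) in non-malignant arrays and 1.47 ± 0.2 (2.77-fold, limma adjusted p = 0.00221) in tumors, and the step from non-malignant arrays to tumors, 0.52, did not pass (adjusted p = 0.145). The non-malignant call ended without control 1, control 2, non-malignant 2 or non-malignant 3 (0.76 to 1.08).

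Enolase is represented by the tissue-restricted isoforms alone. Eno3, the muscle enolase, did not pass (0.22 in tumors, limma adjusted p = 0.681; tumor arrays at 7.61, 7.91 and 6.41). Eno2, the neuronal enolase, lay under the 40th percentile on all controls and non-malignant arrays, at 4.38 to 4.5 and 4.21 to 4.22, and read 4.59, 5.26 and 5.75 in tumors, above it on 2 of the 3. It was too dim to be tested.

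Pkm, the pyruvate kinase gene whose M2 splice form is known from proliferating cells, rose in tumors by 1.39 ± 0.15 (SE; 2.61-fold, limma adjusted p = 0.000884). Its values were 10.97, 10.91 and 11.22 in controls, 11.28, 11.37 and 11.35 in non-malignant arrays and 12.41, 12.17 and 12.68 in tumors. The groups did not overlap, but non-malignant arrays differed from controls by 0.3 only (adjusted p = 0.472), whereas tumors lay 1.09 ± 0.15 above non-malignant arrays (limma adjusted p = 0.00833). That last call held in 8 of 9 fits with 1 array left out and ended without non-malignant 3. The 1 probe set does not separate splice forms.

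At the last step, lactate dehydrogenase, the isoforms moved in opposite directions in tumors. Ldha encodes the A subunit, known to favour the making of lactate, and Ldhb the B subunit, known from oxidative tissues. Ldha stood at 11.45, 11.36 and 11.54 in controls, 11.92, 12.01 and 11.92 in non-malignant arrays and 12.32, 12.38 and 12.55 in tumors. Each group lay wholly above the one before, with small spread. Its log2 fold changes were 0.5 ± 0.11 (SE; limma adjusted p = 0.0363) and 0.97 ± 0.11 (1.96-fold, limma adjusted p = 0.00104) against controls and 0.47 ± 0.11 (adjusted p = 0.0475) between tumors and non-malignant arrays. The call in non-malignant arrays held in 2 of 9 fits with 1 array left out (those without tumor 1 or tumor 3; 0.46 to 0.55), and the call between tumors and non-malignant arrays in 1 (that without tumor 1; 0.4 to 0.51).

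Ldhb ran from 12.14, 12.59 and 12.02 in controls through 11.36, 10.65 and 10.61 in non-malignant arrays to 10.52, 9.84 and 9.11 in tumors, again without overlap. It fell by 2.43 in tumors against controls on the log2 scale (SE 0.34; 5.39-fold, limma adjusted p = 0.00262). The differences of −1.38 in non-malignant arrays and −1.05 between tumors and non-malignant arrays did not pass (adjusted p = 0.0665 and 0.106), although the former passed without tumor 1 or tumor 3 (−1.62 to −1.21 with 1 array left out) and the latter without tumor 1 (−1.4 to −0.7). All 4 Ldhb probe sets fell in tumors in the fit of all probe sets, with log2 fold changes between −3.82 and −2.43. The lowest reading, 5.34 on tumor 3, lay just above that array's 40th percentile of 5.3.

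The within-array difference Ldha minus Ldhb was −0.8 ± 0.39 (SD, n = 3) in controls, 1.08 ± 0.45 in non-malignant arrays and 2.59 ± 0.81 in tumors. Of the 10 isoform pairs compared, this one alone was without overlap in all 3 comparisons. The groups differed by 1.88, 3.4 and 1.52 (two-sided exact permutation p = 0.1 each, adjusted p = 0.273 over the 30 tests). Being the only such pair depended on the setting. With the mean of probe sets Aldoa minus Aldoc was so too, and with non-malignant arrays 2 and 3 averaged Pfkl minus Pfkm was. Ldha rose and Ldhb fell without overlap in each comparison, so the non-overlap of their difference and its p-value were fixed by those values. As 3 against 3 arrays cannot give less than 0.1, no pair could pass. In 11 of the 30 tests the groups did not overlap, where 26.1%, 32.5% and 27.1% of all genes tested, taken singly, did not in the 3 comparisons. The tests share arrays and genes, so this count is not read as a result.

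**Figure D4:**
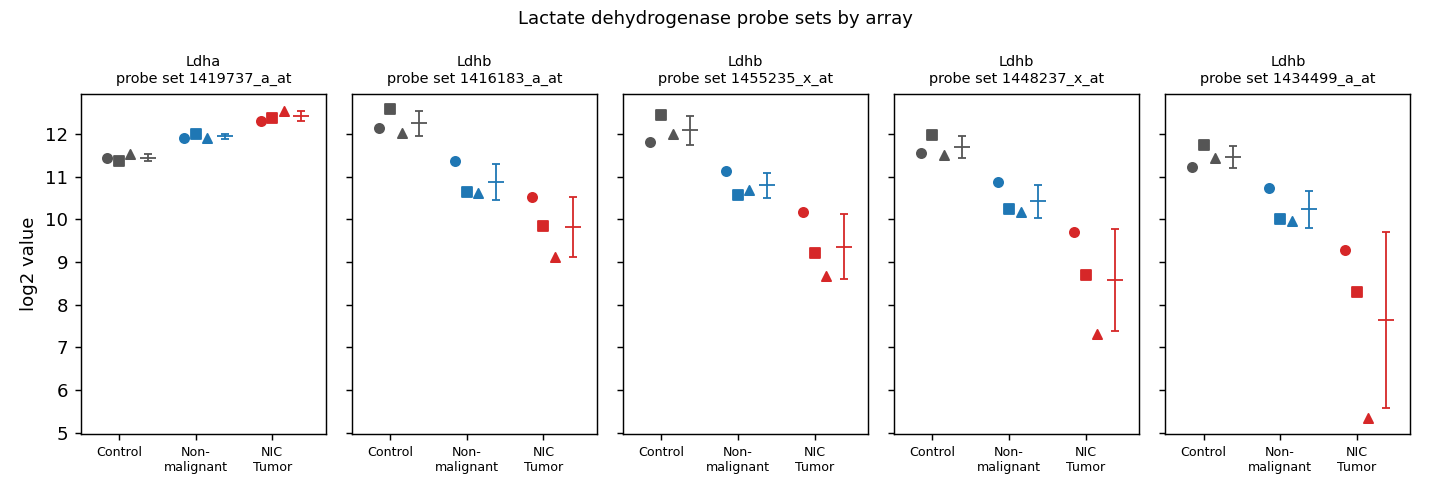
Log2 value (vertical axis, shared) of the 1 Ldha and the 4 Ldhb probe sets by group. Points are arrays (circle, square and triangle for replicates 1, 2 and 3) and bars are mean ± SD of 3 arrays. Group means of Ldha increase, and those of every Ldhb probe set decrease, from control over non-malignant to tumor arrays, the lowest point being tumor 3 at 5.34.

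The promoters of Ldha and Ldhb, which moved in opposite directions in tumors, and of Pgam1, which rose with Ldha, are shown as examples of genes whose 3 groups did not overlap. Each is 300 bases of the coding strand, from 250 before to 50 after the annotated start, taken from RefSeq on GRCm38.p6 with capitals marking ACGTG on either strand (CACGT when read on the printed strand). These letters are the core of the site of hypoxia-inducible factors, and CACGTG, which contains them on both strands, is the E-box bound by Myc and its partners.
Ldha (chr7:46845554-46845853, plus strand): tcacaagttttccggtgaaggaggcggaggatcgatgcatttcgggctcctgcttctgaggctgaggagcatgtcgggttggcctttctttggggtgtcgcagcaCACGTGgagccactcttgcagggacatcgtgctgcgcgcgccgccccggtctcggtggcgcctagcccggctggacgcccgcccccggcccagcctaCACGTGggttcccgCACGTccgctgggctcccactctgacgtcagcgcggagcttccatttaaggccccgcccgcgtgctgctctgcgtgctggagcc
Ldhb (chr6:142507908-142508207, minus strand): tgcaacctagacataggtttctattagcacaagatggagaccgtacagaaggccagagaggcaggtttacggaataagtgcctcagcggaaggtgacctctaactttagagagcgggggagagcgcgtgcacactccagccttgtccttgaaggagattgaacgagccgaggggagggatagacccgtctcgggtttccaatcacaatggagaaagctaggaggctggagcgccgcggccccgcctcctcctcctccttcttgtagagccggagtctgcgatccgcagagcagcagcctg
Pgam1 (chr19:41911621-41911920, plus strand): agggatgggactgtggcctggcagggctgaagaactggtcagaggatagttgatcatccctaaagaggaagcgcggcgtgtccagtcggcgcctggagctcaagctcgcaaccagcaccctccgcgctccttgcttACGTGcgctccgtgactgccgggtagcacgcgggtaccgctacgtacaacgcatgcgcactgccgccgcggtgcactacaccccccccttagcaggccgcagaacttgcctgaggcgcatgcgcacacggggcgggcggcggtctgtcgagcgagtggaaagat

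The Ldha promoter holds CACGTG at 2 places and ACGTG at 5 positions counted over both strands, 4 of which lie within these 2 E-boxes. The second RefSeq promoter of Ldha and the single one of Ldhb hold neither motif, and that of Pgam1 holds ACGTG once. Of the 37 genes, 36 matched a promoter, with 53 promoters in all, and Slc2a3 did not. CACGTG was found in 6 of the 53 (11.3%) and in 7.15% of all 32851 promoters. ACGTG was found in 24 of the 53 (45.3%) and in 19.6% of all. The motif TGGGAA, part of the site of the Notch partner Rbpj, was found in 22.6% and 25.6%. In the 17 promoters of genes called higher in tumors against controls, CACGTG was found in 1 (5.88%), that of Ldha. In these 17, ACGTG was found in 9 (52.9%) and TGGGAA in 4 (23.5%). The members' promoters are richer in CpG, with a median of 18 CpG dinucleotides against 7 in all promoters, and ACGTG itself contains CpG. A match describes the letters only.

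Lactate leaves the cell through monocarboxylate transporters. Slc16a1, known as MCT1, differed from controls by −0.16 in non-malignant arrays and 0.05 in tumors, with overlapping arrays (10.52 to 10.69 in controls, 10.11 to 10.97 in tumors). Slc16a3, known as MCT4, differed by 0.09 and 0.24 (limma adjusted p = 0.957 and 0.368), at 5.3 to 5.63 in controls and 5.46 to 5.84 in tumors. The 95% intervals in tumors, −0.53 to 0.63 and −0.15 to 0.62, do not reach the size of the change in Ldha. Slc16a3 lay near the dim end of the scale (40th percentile 5.15 to 5.3 on tumor arrays), which limits its fold.

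Pyruvate enters the mitochondrial route through the pyruvate dehydrogenase complex, of which Pdha1 encodes the catalytic alpha subunit. Pdha1 did not pass in any comparison (−0.29 in non-malignant arrays and 0.17 in tumors against controls, 0.46 between them, limma adjusted p = 0.476, 0.466 and 0.105). Of its inhibitory kinases, Pdk2 fell in both groups. It stood at 6.07, 6.62 and 6.18 in controls, 5.05, 5.14 and 5.48 in non-malignant arrays and 5.17, 5.92 and 5.28 in tumors, all 6 of these below every control. The log2 fold changes were −1.06 (SE 0.23, limma adjusted p = 0.0335) and −0.84 (SE 0.23, limma adjusted p = 0.037). Non-malignant 1 and tumor 3 lay under the 40th percentile, and with such values raised to it the differences were −1.02 and −0.83. The first call ended without any 1 control or non-malignant array (−1.19 to −0.9) and the second without any 1 array other than tumor 2 (−1.07 to −0.67).

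Pdk1, the kinase isoform known as a hypoxia target, differed between the control arrays more than between the groups. Control 2 stood at 10.49 against 8.12 and 7.62 on controls 1 and 3, 7.52 to 8.02 in non-malignant arrays and 8.24 to 8.96 in tumors, and all 4 Pdk1 probe sets were highest on control 2. With all arrays the tumors differed from controls by −0.09 (limma adjusted p = 0.934), and without control 2 by 0.78 (adjusted p = 0.132). Another Pdk1 probe set did not repeat the latter difference and read 8.07 and 7.58 on controls 1 and 3 and 8.26, 7.4 and 6.16 in tumors. Pdk3 stood at 8.43, 8.4 and 8.54 in controls, 8.69, 9.05 and 8.84 in non-malignant arrays and 8.69, 8.85 and 8.7 in tumors, higher without overlap in both groups (0.4 and 0.29), and did not pass (limma adjusted p = 0.288 and 0.234). Pdk4 lay under the 40th percentile on every array, at 2.95 to 3.41.

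Phosphoglucomutase links glycolysis to glycogen. Pgm1, the main isoform (named here by its Entrez identity, since older mouse annotation used this symbol for the gene now called Pgm2), rose in tumors from 7.05, 6.91 and 6.51 in controls to 8.07, 8.12 and 8.34, with 7.28, 7.28 and 7.13 in non-malignant arrays. The tumors stood apart from both other groups, by 1.36 ± 0.18 (SE; 2.56-fold, limma adjusted p = 0.00168) and 0.95 ± 0.18 (limma adjusted p = 0.0252). A second, dimmer Pgm1 probe set stayed between 5.46 and 5.89 on all 9 arrays. Pgm2 itself, at 6.66, 6.66 and 6.4 in controls, 6.52, 6.8 and 6.57 in non-malignant arrays and 7.07, 6.92 and 6.55 in tumors, differed by 0.27 in tumors and did not pass (limma adjusted p = 0.31).

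In the pentose phosphate branch, Pgd and Tkt were called higher in tumors than in controls. By the probe sets with the highest mean, their values in non-malignant arrays overlapped those in tumors. By another probe set of each gene they did not. Pgd, the second oxidative enzyme, stood at 9.27, 9.35 and 9.57 in controls, 10.45, 10.03 and 9.98 in non-malignant arrays and 9.93, 10.2 and 9.98 in tumors. It rose in tumors (0.64, limma adjusted p = 0.0384), differed by 0.76 in non-malignant arrays with an adjusted p of 0.0529, and tumors and non-malignant arrays overlapped (−0.11, 95% interval −0.51 to 0.29). Its tumor call ended without any 1 control, non-malignant 2 or 3, or tumor 2 or 3 (0.56 to 0.73). A probe set of Pgd that is not of the x_at kind rose more in tumors (0.96, limma adjusted p = 0.0151). It lay 0.5 higher in tumors than in non-malignant arrays, without overlap (adjusted p = 0.172). Tkt, the transketolase of the non-oxidative arm, rose by 0.73 ± 0.16 (SE; limma adjusted p = 0.0409) in non-malignant arrays and 0.95 ± 0.16 (1.93-fold, limma adjusted p = 0.00656) in tumors, from 11.17, 10.79 and 11.39 in controls to 11.97, 11.79 and 11.77 and to 12, 12.23 and 11.97. The non-malignant call of Tkt ended on leaving out control 1, control 2 or any of the non-malignant arrays (0.57 to 0.86). The dimmest Tkt probe set, near the 40th percentile, differed by −0.02 and 0.45 and did not pass.

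Taldo1, the transaldolase of the same arm, stood at 10.29, 10.28 and 10.34 in controls, 10.69, 10.85 and 10.83 in non-malignant arrays and 9.97, 10.34 and 10.27 in tumors. The non-malignant arrays lay above all others, but neither the difference from controls (0.48, limma adjusted p = 0.139) nor that of tumors from non-malignant arrays (−0.6, adjusted p = 0.0519) passed. The 95% interval of the latter ran from −0.93 to −0.27.

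Of the 15 genes called in tumors against controls, 8 were called in each of the 9 fits with 1 array left out. They were Aldoa, Tpi1, Pgam1, Pkm, Ldha, Pgm1 and Tkt among the risen genes and Ldhb among the fallen ones. The other 7, Slc2a3, Hk2, Pfkfb4, Aldoc, Pgk1, Pdk2 and Pgd, each lost the call without at least 1 array named above. None of the calls in the other 2 comparisons held in all 9 fits.

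Other genes of the same pathways were counted for comparison. Of 57 further genes listed, such as transporters, minor isoforms and subunits of the pyruvate dehydrogenase complex, 41 were tested, and in tumors against controls 6 rose and 1 fell, where 15.7% of all genes were called. The risen ones were Pgm3 (1.7), an enzyme of hexosamine synthesis, the ribokinase Rbks (1.13), the ADP-dependent glucokinase Adpgk (1.1), Slc2a8 (0.9), Dlat (0.8), a subunit of the pyruvate dehydrogenase complex, and Slc16a6 (0.58). H6pd, the hexose phosphate dehydrogenase of the endoplasmic reticulum, fell by 1.71 on the log2 scale. In non-malignant arrays against controls 0 of the 41 passed by limma (6 at an unadjusted p under 0.05), where 3.53% of all genes were called. Between tumors and non-malignant arrays Adpgk (0.75) and Slc16a6 (0.81) rose and Bpgm (−0.99) and Prps2 (−1.32), a maker of phosphoribosyl pyrophosphate, fell, where 4.23% of all genes were called. With non-malignant arrays 2 and 3 averaged, 0 of these last 4 passed (limma adjusted p = 0.133 to 0.175), and 6 of the 7 calls in tumors against controls remained.

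Among 17 tested genes known to control glycolysis genes, Myc rose in tumors (2.34, limma adjusted p = 0.00133) and stood at 6.9 to 7.43 in controls, 8.1 to 8.34 in non-malignant arrays and 8.81 to 9.93 in tumors. Mycn rose by 4.72 in tumors and 5.09 in non-malignant arrays. Epas1 lay under the 40th percentile on all 3 controls (3.98 to 4.79) and rose by at least 4.48 and 5.32 with these values raised to that percentile. Hes1 rose in both groups, and Foxo1 passed in non-malignant arrays (1.55). Txnip, an inhibitor of glucose uptake, and Nfe2l2, an activator of pentose phosphate genes, fell in tumors (−1.67 and −0.86). Between tumors and non-malignant arrays Myc rose (1.25) and Nfe2l2 fell by 0.85. With non-malignant arrays 2 and 3 averaged, these 2 calls and that of Foxo1 ended (limma adjusted p = 0.139 to 0.166). Notch1 itself stood at 9.81, 10 and 10.34 in controls, 12.88, 12.97 and 12.87 in non-malignant arrays and 12.92, 9 and 10.81 in tumors, with tumor 2 below every control, and did not pass (limma adjusted p = 0.0802 and 0.448). Hif1a, at 10.26 to 10.87 in controls and non-malignant arrays and 8.84 to 10.51 in tumors, did not pass (limma adjusted p = 0.0972).

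Markers of other cells moved with the groups in part. The summed level of 12 myeloid and granulocyte markers, as log2 of the sum of linear signals, was 9.52 to 9.67 in controls, 10.48 to 10.67 in non-malignant arrays and 9.87 to 11.3 in tumors. Of the 11 tested, 1 (Ctss) rose in each group, and none lay under the 40th percentile on all arrays. At an unadjusted limma p under 0.05 these were 4 in non-malignant arrays and 5 in tumors, against 1766 and 4280 of all 13296 genes. S100a8 and S100a9 differed by 2.76 and 2.61 in non-malignant arrays and did not pass (limma adjusted p = 0.0837 and 0.117). On tumor 2 they read 8.35 and 8.28. For 5 erythroid markers with a level the sum was 8.38 to 8.51, 9.03 to 9.22 and 8.82 to 10.58, with tumor 2 the highest (Slc4a1 at 9.18 there). Of the 4 erythroid genes tested 0 passed by limma (2 and 3 at an unadjusted p under 0.05 in non-malignant arrays and tumors), and Hba-a1 lay under the 40th percentile on all arrays. B lineage sums were 8.9 to 9.41, 9.48 to 9.68 and 8.62 to 9.36, with Cd22 higher in non-malignant arrays than in either other group and Cd79b lower in tumors, and thymic stroma sums 8.88 to 9.24, 9.13 to 9.29 and 9.18 to 9.74. Among T lineage markers Cd7 rose and Thy1, Cd4 and Cd5 fell in tumors, Cd2 rose in non-malignant arrays, Ptcra (11.65 to 12.19 in non-malignant arrays, 10.3, 7.39 and 6.39 in tumors) fell between them (−3.84, limma adjusted p = 0.0336), and the sum was lowest in tumors (14.51 to 15.14, against 15.34 to 15.58 elsewhere). With non-malignant arrays 2 and 3 averaged, the calls of Ptcra, of Ctss in non-malignant arrays, of Cd79b and of Cd22 in tumors against non-malignant arrays ended (limma adjusted p = 0.0688 to 0.14). The part of such cells in the values of the glycolysis genes was not tested.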

How the data were processed

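The deposited table holds log2 values of 45101 Affymetrix probe sets on 9 arrays; per the labels' protocols, RNA was isolated with TRIZOL and RNeasy columns and labelled as biotinylated cRNA. The log2 scale and a normalization by the authors are read from the values (their range and similar medians), since the method is not given in the sources used here. The member genes and all lists were chosen with earlier results of these data known. Genes were named through the platform annotation and RefSeq (GRCm38.p6), and each took its single-symbol probe set with the highest mean. Genes above an array's 40th percentile on at least 3 arrays were tested (13296) with limma 3.58.1 in R 4.3.3, fitting all 9 arrays with a trended prior (residual df 6, prior df 3.6) and Benjamini-Hochberg adjustment over all genes. The fit was tested on simulated data. Isoform differences used exact permutation tests (scipy 1.17.1). Every member was accounted for, with array values or their ranges for those called in at least 1 comparison and the other isoforms of their step. Other probe sets are given mainly where their sign or call differed. The number of arrays limits precision.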

Additional observations from a re-analysis of the deposited data

How the results depend on the processing

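Over 22 alternative settings, the 8 genes called in tumors against controls in every fit with 1 array left out were also called under the other settings that kept the threshold of an adjusted p under 0.05 and no fold minimum. Of 2034 values for single genes, 1787 kept direction (at 2 decimals) and side of the threshold, 144 lost the call, 53 gained one and 50 changed sign. Most of the 2034 belong to genes not called in the comparison at hand, which had no call to lose. The 144 losses all fall on the 5, 15 and 5 calls of the 3 comparisons. Calls in non-malignant arrays against controls (5) numbered 3 without a filter, 3 with all probe sets as features, 3 with the replicate number as a block, 15 with array weights (18.2% of all genes), 8 with only the 2 groups compared (8.42% of all genes), 2 with a 2-fold minimum, 0 at an adjusted p under 0.01, 0 with non-malignant 2 and 3 averaged, and 0 to 7 with 1 array left out (0 to 2 without any 1 control or non-malignant array). Calls in tumors against controls (15) numbered 9 with only the 2 groups compared, 8 at an adjusted p under 0.01, 8 with a 2-fold minimum, 12 with the replicate block and 8 to 14 with 1 array left out (8 or 9 without any 1 control). Calls in tumors against non-malignant arrays (5) numbered 17 with array weights (42.9% of all genes), 2 with only the 2 groups, 3 with the replicate block, 3 with a 2-fold minimum, 1 at an adjusted p under 0.01, 0 with non-malignant 2 and 3 averaged and 0 to 9 with 1 array left out (0 or 1 without any 1 non-malignant array, 1 without tumor 2, 3 without tumor 3, 9 without tumor 1, where 25.7% of all genes were called). With array weights the medians were 0.05, 0.41 and 0.4 in place of 0.18, 0.27 and 0.21, and with 1 array left out 0.06 to 0.23, 0.23 to 0.45 and 0.1 to 0.37, highest in both tumor comparisons without tumor 3. The sign changes, with the range over fits with 1 array left out, were these. In non-malignant arrays against controls, signs turned without 1 array for Tpi1 (−0.02 to 0.55), Eno3 (−0.08 to 0.17), Hk1 (−0.05 to 0.24), Hk2 (−0.03 to 0.15), Pfkl (−0.21 to 0.4), Pgm2 (−0.03 to 0.11), Slc16a1 (−0.3 to 0.06) and Slc16a3 (−0.06 to 0.19), for Tigar with the mean of probe sets (0.35), and with array weights for Eno3 (−0.1), Hk1 (−0.05), Hk2 (−0.02), Pfkl (−0.21), Slc16a1 (0.01) and Slc16a3 (−0.05). In tumors against controls they turned without 1 array for Pdk1 (−0.66 to 0.78), Eno3 (−0.08 to 0.68), Pfkfb2 (−0.12 to 0.15), Pfkm (−0.04 to 0.28), Slc16a1 (−0.11 to 0.32), Slc2a1 (−0.24 to 0.65) and Tigar (−0.06 to 0.16), and for Pdk1 with quantile normalization (0.01) and array weights (0.3). Between tumors and non-malignant arrays they turned without 1 array for Eno3 (−0.13 to 0.62), Pfkfb3 (−0.31 to 0.2), Pfkp (−0.03 to 0.15), Pgd (−0.2 to 0.03), Slc16a1 (−0.01 to 0.48), Slc2a1 (−0.23 to 0.66) and Slc2a3 (−0.8 to 0.02), with quantile normalization for Pdk3 (0.06) and Pgd (0.03), with the mean of probe sets for Pfkfb3 (0.2) and Tigar (−0.1), and with array weights for Pfkfb3 (0.46), Pfkfb4 (0.13) and Pgd (0.14). No value in this list passed under the setting that turned it, except Pfkfb3 with array weights (limma adjusted p = 0.0472). The cause was not tested. Replicate numbers were not taken as pairs, as deviations of same-numbered arrays correlated at −0.05 to 0.22. Over all genes, calls in the 3 comparisons (469, 2083 and 562) numbered 208, 1470 and 55 with non-malignant 2 and 3 averaged. Non-overlapping isoform tests (11 of 30) numbered 13 with the mean of probe sets, 12 with non-malignant 2 and 3 averaged, 9 with the other Hk1 probe set and 11 to 16 with 1 array left out, settings chosen after seeing the data. Most probe sets lie well inside the scale, but Aldoc, Eno2, Pdk4, Slc16a3 and, outside controls, Pdk2 lie near its dim end, which limits their folds.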
